A study of Homo sapiens with 24 samples.

Results

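The genes described here encode the proteins of the cytosolic ribosome. They were chosen by symbol: RPL or RPS followed by digits, with an optional A, X or L at the end, plus the P-stalk and RPSA symbols, without the S6 kinase genes and without pseudogenes. A gene entered when the array had a probe set annotated to its symbol alone, and the probe set with the highest mean stood for it. This gave 61 of the 18417 genes measured that way, 39 of the large subunit and 22 of the small subunit. By the same rule RefSeq lists 81 such genes. Of the others, 11 lay only on probe sets shared with another symbol (RPL13A, RPL21, RPL36A, RPL37, RPL39, RPL6, RPL9, RPS10, RPS12, RPS18 and RPS26). These and the remaining 9 were not analysed here.

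RNA came from SUM149PT and SUM190PT, established lines of inflammatory breast cancer, each treated for 48 h and hybridised to 12 arrays, 3 per group. Each line had 4 groups: vehicle (ethanol and DMSO), 17β-estradiol at 10 nM, the histone deacetylase inhibitor CG-1521, and both agents together, which is called the combination below. CG-1521 was used at 7.5 µM in SUM149PT and at 5 µM in SUM190PT. The labels call both lines ER(-). SUM149PT was treated in medium with serum and SUM190PT in medium without it, so line, dose and medium changed together and cannot be told apart. The series design speaks of independent experiments, 1 for each of the 3 arrays in a group, and this small number limits the precision of every value. Values are log2 RMA levels, so 1 unit is a 2-fold difference, and tests compare a gene only with itself under another condition, since levels of different probe sets on an array are not on one scale.

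The mature ribosome joins ribosomal RNAs with a large set of proteins, nearly all present once, so cells make the proteins in matched amounts. Much of that matching is known to occur after transcription: the mRNAs begin with a cytosine followed by a run of pyrimidines, the 5′ terminal oligopyrimidine or TOP tract, through which mTOR signalling and LARP1 set their translation. Ribosome assembly takes place largely in the nucleolus and needs RNA polymerase I and a large group of biogenesis factors, many of them targets of MYC. Ribosomal protein genes also have many processed pseudogenes with nearly the same sequence, so the probes of a member may read related copies as well.

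The start of the transcript is what these genes are known to share, and 15 bases on each side of it are printed here for members whose values are described below. RefSeq promoter entries (GRCh38.p14) were matched by symbol for 50 of the 61 members. Capitals mark a run of at least 5 C or T bases that begins with C at the annotated start.
RPS6, chr9:19380222-19380251, minus strand: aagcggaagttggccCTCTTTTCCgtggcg
RPS21, chr20:62387088-62387117, plus strand: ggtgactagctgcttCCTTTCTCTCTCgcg
RPS23, chr5:82278340-82278369, minus strand: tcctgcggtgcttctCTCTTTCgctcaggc
RPS19, chr19:41860240-41860269, plus strand: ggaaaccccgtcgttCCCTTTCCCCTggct
RPS24, chr10:78033848-78033877, plus strand: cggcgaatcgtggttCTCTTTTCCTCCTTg
RPL14, chr3:40457324-40457353, plus strand: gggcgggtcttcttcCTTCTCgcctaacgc
RPL22, chr1:6199581-6199610, minus strand: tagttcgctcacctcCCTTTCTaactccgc
RPL26, chr17:8383179-8383208, minus strand: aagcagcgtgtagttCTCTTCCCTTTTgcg
RPL31, chr2:101002274-101002303, plus strand: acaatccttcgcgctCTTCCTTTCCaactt
RPL35A, chr3:197950175-197950204, plus strand: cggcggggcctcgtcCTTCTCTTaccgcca

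Members without such a run at the annotated start are shown for contrast, since they include genes that moved as much as those above.
RPS7, chr2:3575245-3575274, plus strand: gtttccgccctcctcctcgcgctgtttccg
RPS15, chr19:1438381-1438410, plus strand: tgcgcaggcgcggaccaaagcgatctcttc
RPS27L, chr15:63157463-63157492, minus strand: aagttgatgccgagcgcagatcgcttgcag
RPL10A, chr6:35468386-35468415, plus strand: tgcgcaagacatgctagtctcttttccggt
RPL27, chr17:42998404-42998433, plus strand: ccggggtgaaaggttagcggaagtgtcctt
In RPL10A and RPS15 a stretch of C and T lay a few bases inside the annotated start, so the class depends on which start RefSeq lists. In RPS7 such a stretch crossed the annotated start, and in RPL27 the start of the promoter entry lay inside the gene's span, which begins at 42998273, so the class of these genes is likewise in doubt. The run was present in 33 of the 50 members with an entry (66.0%), against 729 of 15842 protein-coding genes (4.6%). In the 250 bases before the start, CCGGAA, the core of an ETS factor motif, was found on either strand in 46.0% of members and 19.3% of coding genes. ATGGCG, the core of the YY1 motif, was found in 18.0% and 7.37%. The shares were closer for GGGCGG (60.0% and 56.0%), TATAAA (10.0% and 9.23%) and CCAAT (30.0% and 34.5%). These are matches of letters, on either strand, and overlaps among the motifs were not removed.

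Other features of the arrays bear on all results below. Epithelial markers were at a median log2 level of 11.1 to 11.9 in the 8 groups. Fibroblast and leukocyte markers lay at medians of 4.38 to 5.28. Luminal and basal markers differed between the lines and also moved with CG-1521. The summed log2 level of 6 of 6 luminal markers in SUM190PT was 60.8 to 62.0 with vehicle and 53.8 to 54.8 with CG-1521. In SUM149PT it was 36.2 to 36.5 with vehicle and 38.4 to 39.8 with CG-1521. AGR2 alone rose by 3.88 there, more than the sum of all 6, so the other luminal markers together were lower. The summed log2 level of the 4 of 6 basal markers measured was 23.0 to 25.0 and 26.0 to 26.5 in SUM190PT. In SUM149PT it was 37.3 to 37.4 and 39.1 to 39.3 in the same order. Their part in the results below was not tested. The third vehicle and the third estradiol array of SUM190PT stood apart. Differences were taken from the mean of the other arrays of the same group. Their 29 DNA replication genes had median differences of -1.60 and -1.66 on the log2 scale, and the members had 0.05 and 0.05. Their 54 ribosome biogenesis factors had medians of -0.27 and -0.38. Calls lost without these arrays are given beside the comparison they belong to. RNA was measured in bulk, so fewer cells with a transcript and less of it per cell cannot be told apart.

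As a family, the members were nearly level across treatments within each line. The median over the 61 members in SUM149PT was 11.05 ± 0.05 (SD, n = 3) with vehicle, 11.11 ± 0.06 with estradiol, 11.19 ± 0.13 with CG-1521 and 11.08 ± 0.14 with the combination. In SUM190PT it was 10.77 ± 0.07, 10.80 ± 0.01, 10.75 ± 0.11 and 10.86 ± 0.10 in the same order. Arrays of the 4 treatments overlapped in both lines, whereas every SUM149PT group mean lay above every SUM190PT group mean. For a single member the gap between its highest and lowest group mean had a median of 0.21 log2 units in SUM149PT and 0.27 in SUM190PT, and it exceeded 1 for RPL22 in SUM190PT and for no other member in either line. The plot of array medians sets this beside the ribosome biogenesis factors, whose medians in SUM149PT fell from 9.19 or more on the vehicle and estradiol arrays to 8.64 or less on the CG-1521 and combination arrays.

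**Figure D1:**
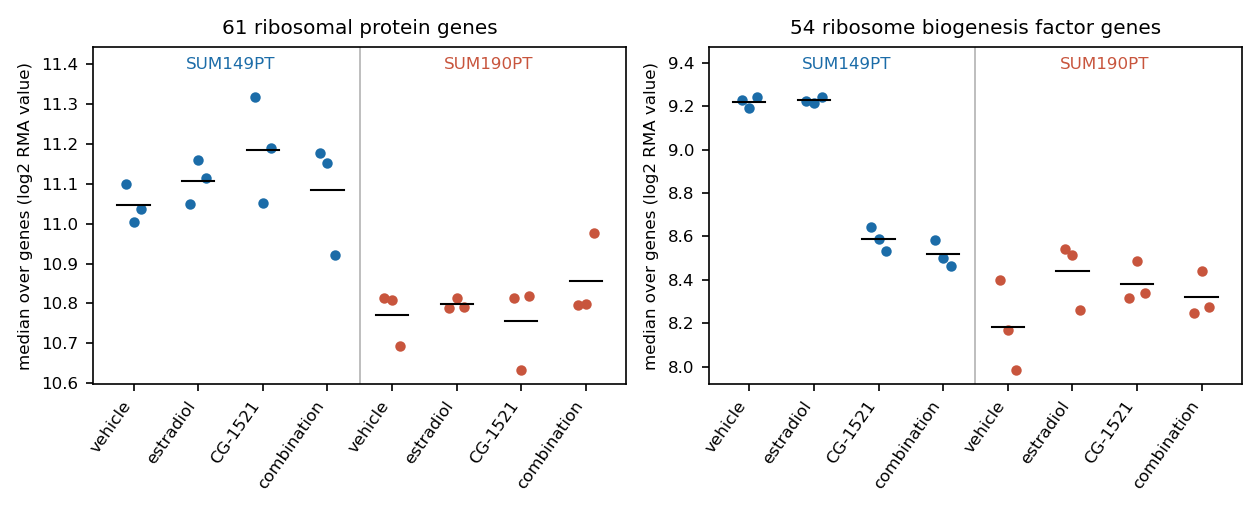
Median log2 RMA level of the 61 ribosomal protein genes (left) and of 54 ribosome biogenesis factor genes (right) on each of the 24 arrays, by group; points are arrays and bars the means of 3. In SUM149PT the biogenesis medians with CG-1521 lie below those without it on every array, whereas the ribosomal protein medians of the treatments overlap.

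In SUM149PT, CG-1521 changed 13 of the 61 ribosomal protein genes, 8 higher and 5 lower than vehicle (limma over 18417 genes, Benjamini-Hochberg adjusted p under 0.05). This is 21.3% of members against 34.3% of all genes, of which 14.4% were higher and 19.9% lower. No member reached 2-fold, where 4.76% of all genes were called and did. The median difference over members was 0.08 and the range -0.62 to 0.61, beside a median of -0.0024 over all genes. With the 24 arrays quantile normalised the split was 11 higher and 3 lower. By subunit, 5 large-subunit members were higher and 2 lower, and 3 small-subunit members were higher and 3 lower.

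The highest rises were those of RPL10A, a large-subunit protein near the exit of the tRNAs, and RPL31, which sits at the end of the peptide tunnel. RPL10A was at 10.27, 9.96 and 9.82 with vehicle and at 10.69, 10.51 and 10.68 with CG-1521, a difference of 0.61 (SE 0.13, adjusted p = 0.0013). RPL31 was at 10.68, 10.42 and 10.39 with vehicle and at 11.28, 10.74 and 11.16 with CG-1521, a difference of 0.56 (SE 0.14, adjusted p = 0.0048). In both, all CG-1521 arrays lay above all vehicle arrays.

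RPS19, the first gene linked to Diamond-Blackfan anaemia, an inherited failure of red cell production caused by loss of a ribosomal protein, rose by 0.52 (SE 0.14, adjusted p = 0.0094). Its vehicle arrays read 10.03, 9.84 and 9.94 and its CG-1521 arrays 10.57, 10.29 and 10.52. RPS27, another gene of that disease, rose by 0.32 and RPL27A by 0.46. RPL29 was higher by 0.21, with an adjusted p of 0.047 that was not kept when any of 5 of the 6 arrays was left out. For RPL27A the direction depended on the probe set: the brightest gave 0.46 and the others 0.16 and -0.97. The mean of its probe sets gave -0.11 (adjusted p = 0.39). RPL29 also had a second probe set that differed in sign (-0.11).

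The members that fell were RPL39L, RPS24, RPS15, RPS2 and RPL35A. RPL39L, a copy of the tunnel protein RPL39 that is known mainly from testis and tumours, was at 7.44, 7.62 and 7.44 with vehicle and at 7.19, 6.75 and 6.69 with CG-1521, a difference of -0.62 (SE 0.12, adjusted p = 0.00066). RPS2, which lines the mRNA entry channel, was at 12.09, 12.06 and 12.07 with vehicle and at 11.78, 11.85 and 11.81 with CG-1521. It differed by -0.26 (SE 0.07, adjusted p = 0.0099), a small change with no overlap between the groups. RPS24 and RPL35A, both Diamond-Blackfan genes, differed by -0.31 and -0.22, and RPS15, which helps the small subunit leave the nucleus, by -0.31. The calls for RPL10A, RPL10L, RPL31, RPS19, RPS2 and RPS27L were kept under every alternative and with every array left out in turn, and the other 7 were lost under at least 1 of these.

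The same agent was also compared in the presence of estradiol, a contrast of the other 6 arrays of the line; the spread was estimated over all 12 arrays in both. In the combination against estradiol alone, 11 members changed in SUM149PT, 2 higher and 9 lower (36.9% of all genes were called, 16.5% higher and 20.4% lower), with a median of -0.06. All 5 members that fell with CG-1521 alone fell here too, as 5 of the 9 that fell (55.6%): RPL39L by 0.78 on the log2 scale (-0.78), RPS24 (-0.52), RPS2 (-0.30), RPS15 (-0.28) and RPL35A (-0.27). RPL35A showed the closest arrays: 12.06, 12.04 and 12.04 with estradiol and 11.78, 11.79 and 11.75 with the combination. Of the 8 members that rose with CG-1521 alone, RPL10L rose again (0.29), a copy of RPL10 known from testis. RPL10A was at 9.93, 10.22 and 10.26 with estradiol and at 10.56, 10.52 and 10.20 with the combination, so those groups overlapped and the gene did not pass (with quantile normalisation it did, at 0.38, adjusted p = 0.03). RPL32 (-0.56), RPL22 (-0.51), RPS7 (-0.38) and RPS28 (-0.28) were the further falls, and RPL10 (0.32) the further rise. With quantile normalisation the split was 6 higher and 5 lower: of the 5 members that fell in both comparisons RPL39L and RPS24 still passed, and RPS2, RPS15 and RPL35A did not. The calls for RPL32, RPL39L, RPS24 and RPS7 were the 4 kept under every alternative and with every array left out. Against vehicle, the combination changed 13 members, 5 higher and 8 lower (37.2% of all genes), and 7 higher and 3 lower with quantile normalisation. Without vehicle array 3 this count was 8, and without combination array 2 it was 7.

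In SUM190PT, CG-1521 changed 6 members, 5 higher and 1 lower, which is 9.84% of members against 16.6% of all genes (8.32% higher and 8.26% lower). The median difference was 0.07. RPL17, at the exit of the peptide tunnel, was at 8.02, 7.76 and 7.89 with vehicle and at 8.75, 8.29 and 8.52 with CG-1521, a difference of 0.63 (SE 0.13, adjusted p = 0.0074). Its groups did not overlap, and its call was the only one of the 6 kept under every alternative and with every array left out. RPS27L (0.53), RPL37A (0.40), RPS7 (0.38) and RPL14 (0.33) were also higher. The RPS7 and RPL14 calls were lost with the mean of each gene's probe sets, and a second RPS7 probe set gave 0.03. RPS2 was lower, at 12.37, 12.30 and 12.30 with vehicle and 11.95, 12.12 and 11.98 with CG-1521 (difference -0.31, SE 0.09, adjusted p = 0.036). The split was 6 higher and 0 lower with each array centred on its median, where RPS2 was no longer called, and 3 higher and 1 lower with quantile normalisation. Without the arrays that stood apart 7 members passed: RPL37A (adjusted p = 0.053) and RPS2 no longer did, and RPL32 (0.71), RPS29 (0.58) and RPL39L did. Fitted on the 6 arrays compared alone, only RPL17 remained called, and without vehicle array 2 there was likewise 1 call. Without CG-1521 array 1 or without CG-1521 array 3, 2 members were called.

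The combination against estradiol alone in SUM190PT changed 10 members, 6 higher and 4 lower (25.7% of all genes, 12.5% higher and 13.2% lower). RPL22, a large-subunit protein that also binds RNA outside the ribosome and is often mutated in tumours, had the largest difference of any member in any treatment comparison. It was at 6.82, 6.78 and 7.04 with estradiol and at 5.24, 5.80 and 5.90 with the combination, a difference of -1.23 (SE 0.15, adjusted p = 0.0002). RPS23 (-0.44), part of the decoding centre, RPS2 (-0.34) and RPL7A (-0.30) were lower as well. RPL3L (0.58), a muscle form of RPL3, RPL36 (0.56), RPL19 (0.50), RPS7 (0.40), RPL31 (0.38) and RPLP1 (0.32), a P-stalk protein, were higher. The calls for RPL22 and RPL36 were the 2 of 10 kept under every alternative and with every array left out. RPL31 was lost under 4 of 8 alternatives and RPL7A under 3. RPS7 was lost with the mean of its probe sets (adjusted p = 0.14). Without the arrays that stood apart, RPL31 (adjusted p = 0.053), RPLP1 (0.053) and RPL7A (0.088) no longer passed. Quantile normalisation gave 9 higher and 2 lower. Leaving out estradiol array 1, estradiol array 2, combination array 1 or combination array 3 left 4, 3, 4 and 5 calls. Of the 6, RPS7 had also risen with CG-1521 alone (1 of 5 there), and of the 4, RPS2 had also fallen (1 of 1). Against vehicle, the combination raised RPS7 (0.45) and RPL14 (0.36) and lowered RPS2 (-0.30), 3 of 61 members against 13.4% of all genes. The RPS7 and RPL14 calls were lost with the mean of each gene's probe sets. With median centring 5 were higher and none lower. Without the arrays that stood apart RPS2 no longer passed (-0.32, adjusted p = 0.077). Leaving out vehicle array 2, combination array 1 or combination array 3 left 1 call each, and the replicate block gave 9.

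RPS2 was thus lower in each comparison of CG-1521 with its control in both lines, with and without estradiol, and no array with CG-1521 overlapped one without it in the same line. Other members of its channel did not pass the test with CG-1521 alone: RPS3 differed by 0.09 in SUM149PT and -0.13 in SUM190PT, RPS9 by 0.08 and -0.13, and RPS23 by -0.14 and -0.05. In SUM190PT the call for RPS2 was the less firm one. With CG-1521 alone its adjusted p was 0.06, with a difference of -0.32, when the arrays that stood apart were left out. That call was lost under 3 of 8 alternatives and with 5 of 6 arrays left out in turn. The call for the combination against estradiol was lost with 4 of 6 left out, and that against vehicle with all 6.

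RPS27L, a close copy of RPS27 from another gene, was higher with CG-1521 than with vehicle in both lines. In SUM149PT it was at 5.19, 5.27 and 5.05 with vehicle and at 5.65, 5.70 and 5.73 with CG-1521, a difference of 0.52 (SE 0.11, adjusted p = 0.0014). In SUM190PT it was at 6.27, 5.77 and 6.13 with vehicle and at 6.50, 6.50 and 6.74 with CG-1521, a difference of 0.53 (SE 0.13, adjusted p = 0.017). The SUM190PT call was lost when only the groups compared were fitted and with 2 of 6 arrays left out in turn. Its SUM190PT estradiol arrays were at 6.82, 6.64 and 6.67, overlapping those with CG-1521. The combination arrays lay at 6.42, 6.40 and 6.27, below all estradiol arrays. In the combination against estradiol RPS27L passed in neither line. Its interaction in SUM190PT was -0.875 (SE 0.19, limma adjusted p = 0.054).

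RPL39L behaved differently on the arrays that stood apart. In SUM190PT it was at 7.67 and 7.68 on the first and second vehicle arrays but at 6.57 on the third, and at 8.0, 7.88 and 6.84 with estradiol. With CG-1521 it was at 6.82, 7.17 and 7.21 and with the combination at 6.68, 7.02 and 6.95. With all arrays it did not pass the test in SUM190PT (CG-1521 minus vehicle -0.24, adjusted p = 0.65, and combination minus estradiol -0.69, adjusted p = 0.12). Without vehicle array 3 and estradiol array 3 the differences were -0.61 (SE 0.15, adjusted p = 0.014) and -1.06 (SE 0.15, adjusted p = 0.00042), the direction seen in SUM149PT. The plot of single members shows these arrays.

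**Figure D2:**
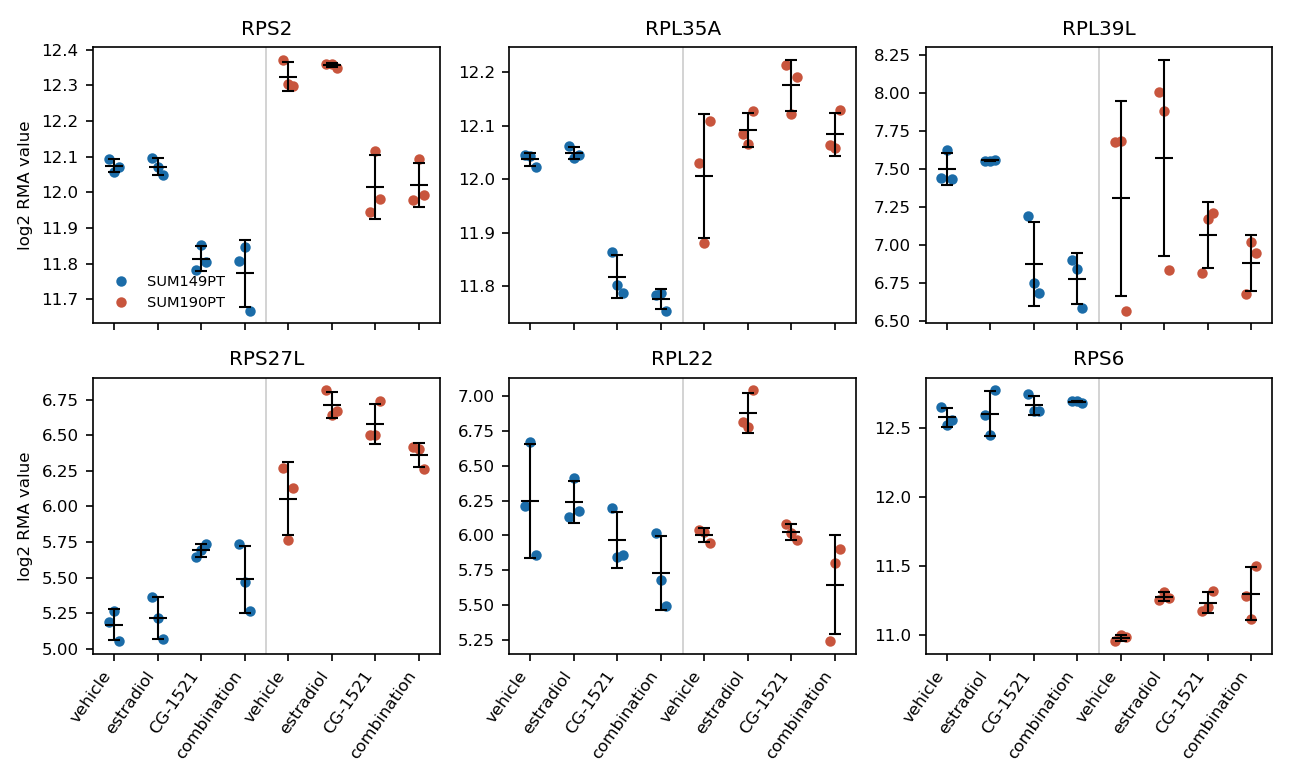
Log2 RMA level of RPS2, RPL35A, RPL39L, RPS27L, RPL22 and RPS6 on each array by group; points are arrays, and black bars the mean ± SD of 3. RPS2 is lower with CG-1521 in both lines, RPL39L is low on the SUM190PT arrays numbered 3 of vehicle and estradiol, RPL22 is highest with estradiol alone in SUM190PT, and RPS6 differs between the lines far more than between treatments.

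Estradiol alone changed no member at the adjusted threshold in either line (limma). In SUM149PT 3 of 61 members had an unadjusted p under 0.05, the smallest for RPL27A (difference 0.39, adjusted p = 1.0), against 845 of all 18417 genes, of which none was called (0.0%). In SUM190PT it was 14 of 61 members against 4531 of all genes, and 1 gene was called (0.00543%). The smallest p-values were those of RPL22 and RPS27L. RPL22 was at 6.04, 6.03 and 5.95 with vehicle and at 6.82, 6.78 and 7.04 with estradiol, a difference of 0.88 (SE 0.15, adjusted p = 0.054). RPS27L differed by 0.66 (SE 0.13, adjusted p = 0.054). Neither overlapped vehicle, and 23 of 61 members did not overlap in this comparison, 18 higher and 5 lower, where 28.4% of all genes did not. The numbered arrays of these groups deviated together, and with the replicate number as a block RPL22 and RPS27L passed (both adjusted p = 0.044, 2.82% of all genes called). Without vehicle array 1, 4 members passed.

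Adding estradiol to CG-1521 also changed no member in either line (limma, 0.0% of all genes called in each). The member with the smallest p was RPL27A in SUM149PT (-0.30, adjusted p = 0.745) and RPL22 in SUM190PT (-0.38, adjusted p = 0.989). The interaction asks whether CG-1521 acted differently with estradiol than without it. In SUM149PT no member passed (0.0% of all genes), and RPL27A had the smallest p (-0.69, adjusted p = 0.762). In SUM190PT RPL22 passed (0.516% of all genes), with an interaction of -1.25 (SE 0.22, adjusted p = 0.048). Its values show the form: near 6.0 with vehicle and with CG-1521, near 6.9 with estradiol, and lowest with the combination. This call was lost under quantile normalisation, with the replicate block, without the arrays that stood apart and when any of 11 of the 12 arrays was left out.

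More members differed between the lines than between any pair of treatments. With vehicle, 35 of 61 differed, 31 higher and 4 lower in SUM149PT, or 57.4% of members against 46.7% of all genes. Of all genes 24.5% were higher and 22.1% lower. The median difference was 0.25 for members and -0.02 for all genes, and 8 members were called and differed at least 2-fold (16.4% of all genes). Quantile normalisation gave 26 higher and 6 lower. The plot of differences between lines runs from -1.06 to 1.65, so size and direction varied between members. Whether a common shift lay under this spread was not tested.

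**Figure D3:**
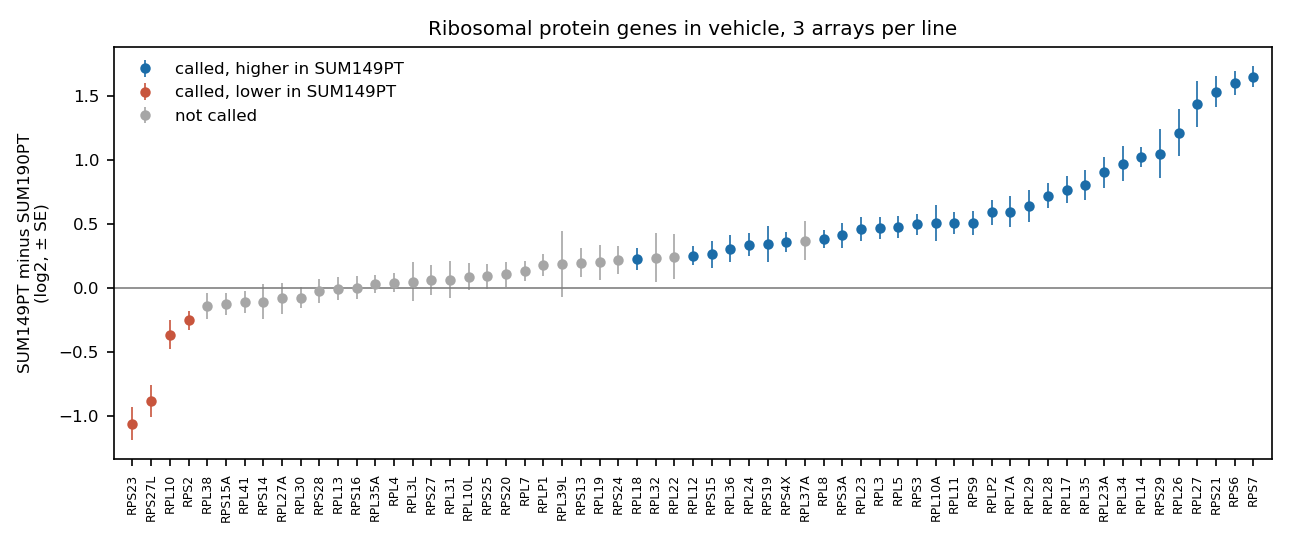
Difference in log2 level between SUM149PT and SUM190PT with vehicle for each of the 61 ribosomal protein genes, ordered by size; bars are the standard errors from limma, and colours mark the 31 higher, 4 lower and 26 other members. The differences run from -1.06 (RPS23) to 1.65 (RPS7).

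RPS7 and RPS6 stood at the top. RPS7, a small-subunit protein that binds MDM2, was at 10.29, 10.08 and 10.33 in SUM149PT and at 8.65, 8.46 and 8.63 in SUM190PT, a 3.14-fold difference (log2 1.65, SE 0.08, adjusted p = 1.7e-13). RPS6, the substrate of the S6 kinases and the usual readout of mTOR activity, was at 12.66, 12.52 and 12.56 against 10.95, 11.00 and 10.98, a 3.04-fold difference (log2 1.60, SE 0.09, adjusted p = 1.9e-12). For both, the lowest SUM149PT array lay over 1 log2 unit above the highest SUM190PT array. A second RPS7 probe set gave a smaller difference of 0.71, and the call was kept with the mean of its probe sets.

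RPS21 (1.53), RPL27 (1.44), RPL26 (1.21), RPS29 (1.05) and RPL14 (1.02) also differed at least 2-fold. RPL26, RPL27 and RPS29 are Diamond-Blackfan genes. RPL34 (0.97), RPL23A (0.90), RPL35 (0.81), RPL17 (0.77) and RPL28 (0.72) followed. RPL5 and RPL11, which join 5S RNA in the particle that binds MDM2 when ribosome assembly fails, were higher by 0.48 and 0.51. RPS4X, from an X-linked gene, was higher by 0.36.

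RPS23 ran the other way, at 6.59, 6.72 and 7.09 in SUM149PT and 7.73, 7.97 and 7.88 in SUM190PT, a difference of -1.06 (SE 0.13, adjusted p = 3.1e-07). RPS27L (-0.89), RPL10 (-0.36), also X-linked, and RPS2 (-0.25) were the other members lower in SUM149PT. Without the arrays that stood apart RPL36 (0.28, adjusted p = 0.066) and RPS15 (0.23, adjusted p = 0.13) no longer passed. The calls of 28 of the 35 members were kept under every alternative and with every array left out in turn.

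The same lines compared on the CG-1521 arrays, which share none with the vehicle comparison, gave 40 members, 33 higher and 7 lower (47.6% of all genes, 25.0% higher and 22.6% lower). Of the 31 that were higher with vehicle 28 were higher here (90.3%, or 84.8% of the 33), and all 4 that were lower were lower here (57.1% of the 7). The share of repeated calls was taken for members only, here and with CG-1521 above, and not for all genes. RPS21 (1.63), RPL27 (1.46), RPS6 (1.43) and RPS7 (1.27) again led. RPL35A was lower in SUM149PT with CG-1521 (-0.36) but differed by 0.03 with vehicle. Median centring moved the median over all genes from 0.04 to -0.06 in this comparison.

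The response to CG-1521 itself differed between lines in 4 members, all lower in SUM149PT, against 20.6% of all genes. RPL17 had a difference of responses of -0.50 (SE 0.15, adjusted p = 0.022), RPL14 of -0.43 (SE 0.11, adjusted p = 0.0068), RPL35A of -0.39 (SE 0.10, adjusted p = 0.0091) and RPS7 of -0.38 (SE 0.12, adjusted p = 0.026). RPL17, RPL14 and RPS7 are those that rose in SUM190PT, and RPL35A is one that fell in SUM149PT. All 4 calls depended on the scaling. With quantile normalisation none of them passed, at -0.35, -0.25, -0.27 and -0.30, and RPL10A (0.61), RPL27A (0.50) and RPS3 (0.32) passed in the other direction. With median centring 7 passed, all lower. Fitted on the 12 arrays compared, RPL14 alone passed (adjusted p = 0.041). The RPS7 call was also lost with the mean of its probe sets. Without the first CG-1521 array of either line 2 members passed.

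**Figure D4:**
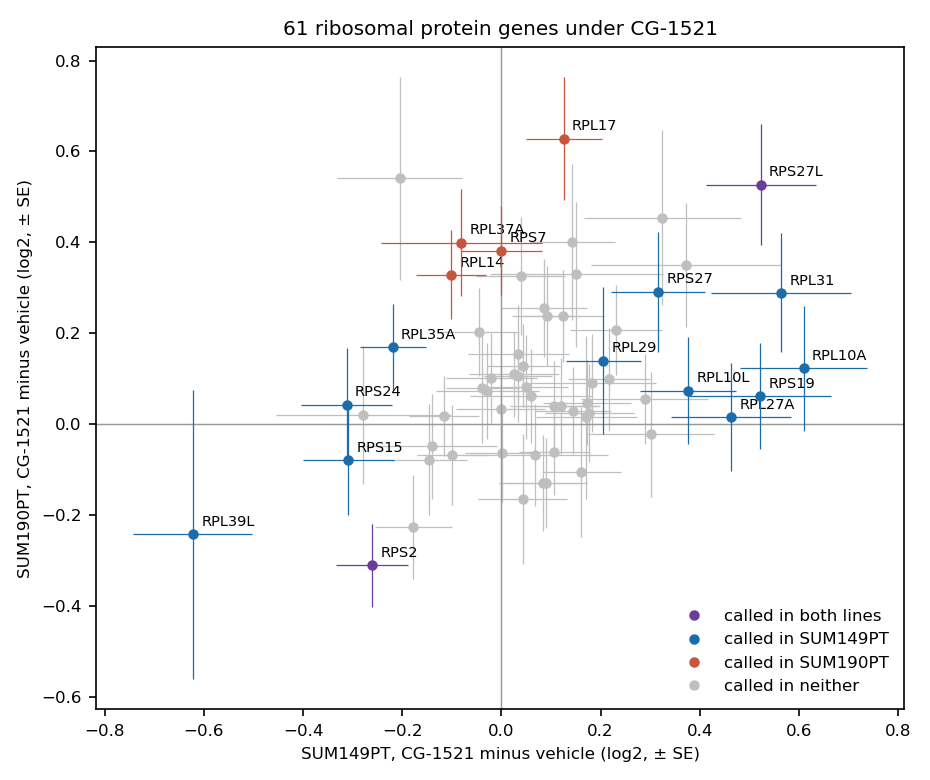
Change of each of the 61 ribosomal protein genes with CG-1521 in SUM149PT (horizontal) and SUM190PT (vertical), as log2 differences from vehicle; bars are standard errors, and colours give the line in which the change was called. RPS27L and RPS2 are the 2 members called in both lines, in the same direction in each.

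Members grouped by role gave no common direction with CG-1521. The 2 members of the 5S particle passed in neither line: RPL5 differed by 0.09 and 0.24, and RPL11 by 0.11 and 0.04, in SUM149PT and SUM190PT. RPS6 differed by 0.09 and 0.26 and did not pass. Of 16 measured Diamond-Blackfan genes of 20 listed, 3 rose and 2 fell in SUM149PT (31.2%, against 34.3% of all genes), and 1 rose in SUM190PT (6.25% against 16.6%). Both measured P-stalk genes, RPLP1 and RPLP2, did not pass in either line. Of the 4 copies with restricted expression, RPS27L and RPL10L rose and RPL39L fell in SUM149PT, and RPS27L rose in SUM190PT. RPL10L, RPL3L and RPS27L, with RPL22, were the 4 members whose mean lay in the lower 50% of all genes, where background takes a larger share of a value.

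Members with and without a pyrimidine run at the start had medians within 0.1 log2 units of each other in these comparisons. In SUM149PT the median change with CG-1521 was 0.08 in the 33 members with the run, 5 higher and 2 lower, and 0.12 in the 17 without it, 3 higher and 1 lower, beside the 34.3% of all genes called. In SUM190PT the medians were 0.06 and 0.13. Between lines with vehicle they were 0.31 and 0.26. Of the members with the largest differences between lines, RPS6 and RPS21 had the run, and RPS7 and RPL27 did not at the starts listed.

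Genes of the machinery that builds ribosomes fell in SUM149PT. Of 54 measured ribosome biogenesis factors (59 listed), 45 fell with CG-1521 and none rose (34.3% of all genes were called), with a median of -0.61. UTP20, of the small-subunit processome, differed by -1.74 (SE 0.14, adjusted p = 1e-07), the nucleolar protein LYAR by -1.27, MRTO4, of pre-60S assembly, by -1.19, nucleolin (NCL) by -0.79 and fibrillarin (FBL), the methyltransferase of ribosomal RNA, by -0.75. Of 15 genes of RNA polymerase I and its factors 11 fell and none rose, among them POLR1B (-0.79) and UBTF (-0.75). Of 73 mitochondrial ribosomal protein genes 36 fell and 3 rose, with a median of -0.22. All 29 DNA replication genes fell, with a median of -1.33. In SUM190PT the array medians of the replication genes were 9.28, 8.92 and 7.24 with vehicle, the last on the array that stood apart. With CG-1521 they were 7.07, 7.75 and 7.30. Whether the fall of the biogenesis factors in SUM149PT moved with proliferation was not tested.

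In SUM190PT, 6 biogenesis factors rose with CG-1521 and 1 fell, against 16.6% of all genes called, with a median of 0.20. Their array medians were 8.4, 8.17 and 7.98 with vehicle, the lowest on the array that stood apart, and 8.32, 8.49 and 8.34 with CG-1521, so the groups overlapped. Without the arrays that stood apart 4 rose and 1 fell, with a median of 0.11. RRP12 (0.78) and EIF6 (0.64), which keeps the subunits apart, were among those that rose, and FBL fell (-0.63). The count ranged from 3 to 18 over the alternatives and arrays left out, and in none of these did more than 1 factor fall. RNA polymerase I genes gave 2 higher and 1 lower, and mitochondrial ribosomal protein genes 8 higher and 5 lower. The difference between the responses of the lines was itself called for 42 of the 54 biogenesis factors, all lower in SUM149PT (median -0.81), and for 36 to 44 over the alternatives and arrays left out. For the ribosomal proteins it was called for 4 of 61, and over all genes for 20.6%. With estradiol present the picture in SUM190PT was not the same. In the combination against estradiol 3 biogenesis factors rose and 3 fell (25.7% of all genes called), with a median of -0.13. Without the arrays that stood apart 3 rose and 10 fell, with a median of -0.22. In SUM149PT that comparison gave 46 lower and 0 higher.

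MYC moved in opposite directions in the 2 lines. It fell by 0.35 in SUM149PT (-0.35, SE 0.08, adjusted p = 0.0028) and rose by 0.72 in SUM190PT (SE 0.13, adjusted p = 0.0025), and the difference of responses was -1.07 (adjusted p = 2.7e-05). With vehicle it was 1.55 higher in SUM149PT. Of the other 15 genes in the list for control of ribosomal protein synthesis, EEF2K fell in both lines (-0.58 and -0.63), as did EIF4EBP2 (-0.33 and -0.58), and RICTOR and TSC1 rose in both (0.39 and 0.80, 0.36 and 0.53). RPS6KB1, the S6 kinase, fell in SUM149PT (-0.52), and DEPTOR in SUM190PT (-1.53).

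Translation factors whose mRNAs are known to carry the same TOP tract gave calls in both directions. In SUM149PT 4 of 17 rose, EIF3F (0.33), TPT1 (0.31), EIF3G (0.31) and EIF3L (0.29), and NAP1L1 (-0.42) and EIF4A2 (-0.26) fell. Of all genes 34.3% were called there, 14.4% higher and 19.9% lower. In SUM190PT 4 rose, among them EIF3G (0.71) and EIF3E (0.71), and EIF3K (-0.60) fell, where 16.6% of all genes were called. The plot of gene groups under CG-1521 sets these side by side.

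**Figure D5:**
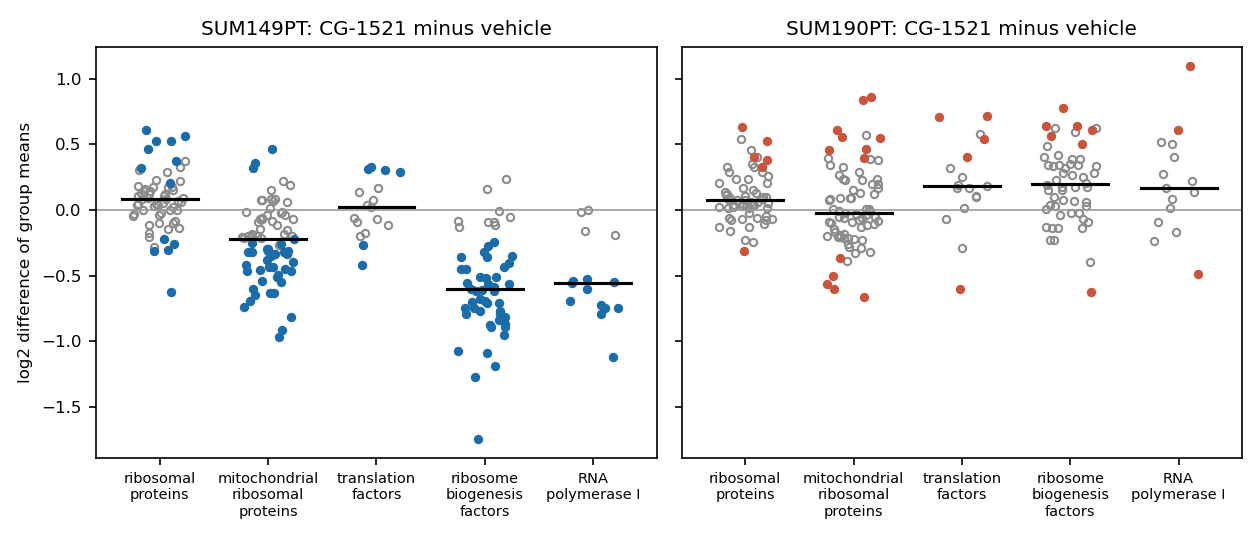
Log2 difference between CG-1521 and vehicle for each gene of 5 groups in SUM149PT (left) and SUM190PT (right); filled points passed the test, open points did not, and bars are medians. In SUM149PT the medians are 0.08 for ribosomal proteins and -0.61 for biogenesis factors, and in SUM190PT 0.07 and 0.20.

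Between the lines with vehicle, 44 of 54 biogenesis factors were higher in SUM149PT and 1 lower (median 0.69), beside 31 higher and 4 lower ribosomal proteins. In the same comparison 9 of 15 RNA polymerase I genes were higher and 1 lower. Of 73 mitochondrial ribosomal protein genes 44 were higher and 9 lower. Over all genes 46.7% were called, 24.5% higher and 22.1% lower. Outside the family, the genes most like the mean of the members over the 24 arrays, after each line's mean was removed, were EIF3H (Pearson r = 0.76), TAB2 (0.74), RGS10 (0.72), SF3B6 (0.71) and HCP5 (0.71). This is a description over arrays that share groups and replicate numbers.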

How the data were processed

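RNA of 24 cultures was amplified, labelled with biotin and hybridised to Affymetrix Human Gene 1.0 ST arrays. The authors deposited log2 values; per the submitters' processing notes these come from RMA, run in Affymetrix Expression Console (no version stated). Whether the lines were normalised together is not given in the sources used here. Probe sets were named through GEO's platform annotation: of 33297, 19460 had 1 symbol, 1754 several and 12083 no entry. Tests were two-sided and used limma 3.58.1 (R 4.3.3) on the values as deposited, over 18417 genes (12 arrays of a line, or 24 between lines), with Benjamini-Hochberg adjustment and a threshold of 0.05. The fits were tested on simulated data with known changes. The members and lists were chosen with earlier results of these data known. In each comparison the text could name up to 10 called members per direction whose arrays did not overlap, every called member where 5 or fewer passed in a direction, role-list genes and 12 genes fixed by name, and up to 4 called genes of other lists. A few further called genes were named after their values were seen. Alternatives were quantile normalisation, median centring, removal of the dimmer 50% of genes, averaging the probe sets of each gene, RPL36AL as a member, the arrays in the fit, each array left out and the replicate number as a block. Numbered arrays deviated together (correlations over 0.1 in all 3 pairs) in SUM190PT for estradiol against vehicle (0.44, 0.23 and 0.73) and the combination against CG-1521 (0.52, 0.43 and 0.50). The main fits did not use this pairing. It entered only through the replicate block, as an alternative. Some items of the labels and gene lists are not reported here.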

Additional observations from a re-analysis of the deposited data

Results flagged for a closer look

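The response to CG-1521 differed between SUM149PT and SUM190PT, by the test of that difference itself (limma over 24 arrays), for RPL17 (-0.502), RPL14 (-0.43), RPL35A (-0.388) and RPS7 (-0.382). RPL17, RPL14 and RPS7 rose in SUM190PT, and RPL35A fell in SUM149PT. None of the 4 passed with quantile normalisation, and RPS7 was also lost with the mean of its probe sets. In SUM190PT the effect of CG-1521 on RPL22 differed with and without estradiol, with an interaction of -1.25, and the gene was highest on the estradiol arrays. This call was lost with the replicate block, with quantile normalisation, without the arrays that stood apart (-1.14, adjusted p = 0.098) and when any of 11 of the 12 arrays was left out.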

How the results depend on the processing

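Of the counts and medians recomputed for members, 409 kept their size and 49 moved. Here, and above where no share is given, counts under alternatives are of members alone. They were not set beside the share of all genes called in the same fit. They describe how stable a count was, not a response of the family. In SUM149PT, the combination changed 7 members against vehicle with only the groups compared, and 7 to 10 with an array left out. In SUM190PT, CG-1521 changed 1 member with only the groups compared and 11 with all 24 arrays in one fit (1 to 8 with an array left out). There, the combination changed 5 members against vehicle with median centring, 7 with the dimmest 50% of genes removed, 9 with the replicate block and 8 with all 24 arrays (1 to 3 with an array left out, median 0.0467 with quantile normalisation). Against estradiol it changed 3 to 9 with an array left out. Estradiol in SUM190PT changed 2 members with the replicate block, 10 with all 24 arrays and 0 to 4 with an array left out, and the median was -0.0606 with quantile normalisation and 0.121 with median centring. The SUM190PT interaction gave 0 members with quantile normalisation, the replicate block or the arrays that stood apart left out, and 4 with all 24 arrays. It gave 0 to 2 with an array left out (median 0.0837 with quantile normalisation and -0.153 with median centring). With the dimmest 50% of genes removed it gave 0, but that step removed RPL22 itself, so it did not test that call. The difference of responses gave 7 members with median centring, 1 with only the groups compared and 2 to 6 with an array left out (median 0.0811 with quantile normalisation). RPL27A in SUM149PT turned to -0.114 with the mean of its probe sets. For single called members, 279 of 1723 recomputed values no longer passed and 1 changed sign. The causes were not tested, and fits with arrays left out also had fewer arrays. The replicate block changed the count of members called by over 1.5 times in no other comparison. Where the numbers did not pair the arrays, they share only a number.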
